A study of Caenorhabditis elegans with 2 samples.

Results

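The 10 genes described here act in sex determination and dosage compensation in *Caenorhabditis elegans*. The data are regions of LIN-39 chromatin immunoprecipitation followed by sequencing (ChIP-seq) around these genes. They are *xol-1*, *sdc-1*, *sdc-2*, *sdc-3*, *dpy-21*, *dpy-26*, *dpy-27*, *dpy-28*, *dpy-30* and *her-1*, 10 of the 19985 protein-coding genes of the ce11 annotation. The genes were chosen by name with the signals of these peak lists already known, the signal of a strong region near *xol-1* among them. Their levels are therefore given as a description, with no test. For each gene, every region was taken whose summit (the midpoint that the lists give for each region) lay from 5000 bp upstream of the annotated 5' end to the 3' end, which is called the window of the gene.

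Whole L4 larvae of strain OP18 were profiled in 2 biological replicates, labelled as pooled male and female. The strain carries *unc-119*(ed3) on chromosome III and the transgene wgIs18, from which LIN-39 is expressed as a fusion with enhanced green fluorescent protein (eGFP). LIN-39 is a Hox homeodomain protein of the mid-body. Both replicates share this genotype, stage and sex label, and there was no second condition. The labels give neither the promoter of the transgene nor whether the native *lin-39* gene is intact. The share of each sex in the pools is not known here. A ChIP signal from whole animals averages over all cells and over the sexes pooled, so cells or sexes with and without it cannot be told apart.

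In *C. elegans*, animals with a pair of X chromosomes develop as hermaphrodites and animals with a single X as males. XOL-1, a protein related to small-molecule kinases, is made in the male embryo and keeps *sdc-2* off. Without XOL-1, SDC-2 acts with SDC-1 and SDC-3 to repress *her-1*, whose secreted product drives male fate, and to bring the dosage compensation complex to both X chromosomes. That complex includes a condensin with DPY-26, DPY-27 and DPY-28, as well as DPY-21 and DPY-30, and lowers X transcription in hermaphrodites. It first binds at recruitment sites on X that share a short sequence motif.

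Each region is given by its rank in its list, where 1 is the highest signal, and by its relative signal, the ratio of the deposited signal to the median of the same list. On ce11 the pooled list and both replicate lists held 30000 regions each and the thresholded list, which holds the peaks past the authors' reproducibility threshold, held 163. No read counts come with the lists, so sequencing depth is unknown. The lowest thresholded peak had a pooled relative signal of 2.34. The pooled list is described by its depositors as peaks and background, so a region of it is not in itself a binding site.

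The sequences at the summits of the 2 members with a thresholded peak are shown first, because their contents differ. Each runs 100 bp to either side of the pooled summit on the plus strand, read from the RefSeq copy of the WBcel235 (ce11) genome. Capitals mark every match of the 7 short patterns searched, on either strand. The region upstream of *xol-1* is chrX:8036247-8036447 and that upstream of *dpy-28* is chrIII:10759147-10759347.
xol-1: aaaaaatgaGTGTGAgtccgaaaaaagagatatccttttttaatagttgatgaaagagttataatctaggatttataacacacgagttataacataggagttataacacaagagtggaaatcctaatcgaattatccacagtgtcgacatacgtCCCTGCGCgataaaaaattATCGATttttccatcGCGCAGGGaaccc
dpy-28: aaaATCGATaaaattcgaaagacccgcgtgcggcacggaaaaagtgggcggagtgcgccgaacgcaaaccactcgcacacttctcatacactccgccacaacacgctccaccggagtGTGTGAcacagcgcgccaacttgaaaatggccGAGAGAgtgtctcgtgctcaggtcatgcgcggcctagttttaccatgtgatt
The first capitals of the *xol-1* sequence are TCACAC, the class of site bound by T-box proteins, on the minus strand. The next are GCGCAGGG on the minus strand, ATCGAT, and GCGCAGGG again on the plus strand. GCGCAGGG is the core of the recruitment motif of the dosage compensation complex, and ATCGAT is a site of ONECUT homeodomain proteins. The *dpy-28* sequence has ATCGAT first. It is followed by a match of TCACAC on the minus strand and then by GAGAGA. The recruitment core is not among its letters.

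The *xol-1* window held the strongest region of all 10 genes. The thresholded peak spanned 8036175 to 8036518 of X, between genes, with its summit 4966 bp upstream of *xol-1*, a gene on the plus strand from 8041313 to 8044409. Its relative signal was 5.95 in the pooled list, where it ranked 11 of 30000, and it stood at place 8 among the 45 thresholded peaks on X. In replicate 1 the relative signal was 5.69 at rank 6, and in replicate 2 it was 4.89 at rank 18, a mean of 5.29 ± 0.568 (SD, n = 2). The summit of replicate 2 fell on the pooled summit and that of replicate 1 fell 15 bp from it, so both replicates placed the region at one position. It lay close to the edge of the window: the nearest region farther upstream, 9558 bp from the gene, had a relative signal of 1.09. The protein-coding gene on the other side, *C34D10.1*, ended 4733 bp from the summit, and *xol-1* had the nearest 5' end of a protein-coding gene. The 5' end of an annotated noncoding RNA, *C18A11.13*, was nearer, 327 bp from the summit.

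The other regions of the *xol-1* window ran from 0.841 to 1.24. A second pooled region, with its summit 4766 bp upstream, overlapped the first and had a relative signal of 1.24, with 1.12 in replicate 1 and 0.876 in replicate 2. Another lay in a coding exon of *xol-1*, 1307 bp past the 5' end, with 0.841 in the pooled list, 1.03 in replicate 1 and no counterpart in replicate 2 (a counterpart is the mutually nearest region with summits within 200 bp). Replicate 1 had 1 more region, 590 bp upstream, with 0.990. Apart from the thresholded peak and the region that overlaps it, no region of the window exceeded 1.03 in any list.

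**Figure D1:**
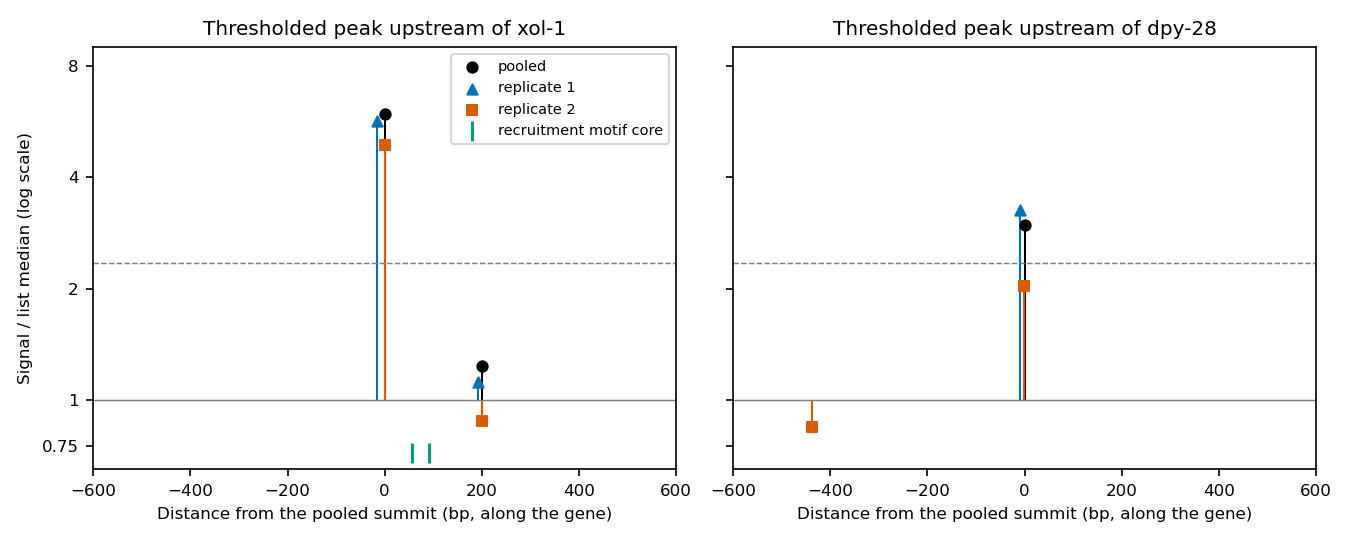
Relative signal (signal over list median, log scale) of all regions within 600 bp of the thresholded peaks upstream of *xol-1* and *dpy-28*, against distance from the pooled summit in bp along the gene. Circles are the pooled list, triangles replicate 1, squares replicate 2, green ticks the matches of the recruitment motif core, and the dashed line is the lowest thresholded peak at 2.34. At *xol-1* both replicates reach 4.89 or more with 2 core matches beside the summit, and at *dpy-28* replicate 2 stays at 2.03 with no core match.

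The recruitment motif core stood beside the *xol-1* summit, at 57 and 91 bp downstream of it. GCGCAGGG was present within 100 bp of the summit of 27 of the 30000 pooled regions, 0.0900%, and of 10 of the 163 thresholded peaks, 6.13%. Each of those 10 peaks was on X, where they made up 22.2% of the 45 thresholded peaks, and none of the 118 autosomal peaks had it. The pattern was picked with the X positions of these peaks already known, so the counts describe the lists and no test was made. Over the genome GCGCAGGG occurred 314 times, at 4.57 per Mb on X and 2.82 per Mb on the autosomes. Of the 81 occurrences on X, 15 (18.5%) lay within 200 bp of a thresholded summit, and of the 233 on autosomes 0 did. A match of these letters is not by itself a recruitment site, and occupancy by the dosage compensation complex was not measured here.

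Among the 10 peaks with the core, 3 had 2 matches, and one of them was that of *xol-1*. The other two were the highest peak of the whole list, nearest to *W02H3.3* and ranked 1, and a peak nearest to *mom-1* and ranked 25. The stretches that hold both matches are printed from 5 bp before the first to 5 bp after the last, to compare spacing and direction, with the core in capitals. They are chrX:11094120-11094238 for *W02H3.3*, chrX:8036396-8036447 for *xol-1* and chrX:6296543-6296588 for *mom-1*.
W02H3.3: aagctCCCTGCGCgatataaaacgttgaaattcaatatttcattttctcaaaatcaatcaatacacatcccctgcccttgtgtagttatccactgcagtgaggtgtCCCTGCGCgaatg
xol-1: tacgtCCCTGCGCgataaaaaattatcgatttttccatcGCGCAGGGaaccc
mom-1: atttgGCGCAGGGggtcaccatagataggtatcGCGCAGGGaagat
At *xol-1* the matches pointed away from each other and were 26 bp apart. At *W02H3.3* both were on the minus strand, 93 bp apart, and at *mom-1* both were on the plus strand, 20 bp apart. The spacing and direction of the core thus differed among the 3 peaks. The remaining core peaks had 1 match each and lay nearest to *Y41G9A.17* (2 overlapping peaks, ranked 3 and 73), *F22H10.2*, *nspc-17*, *ins-39*, *F20B6.9* and *gtr-1*.

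Of the other member windows, only that of *her-1* contained GCGCAGGG. It had 1 match, 1979 bp past the 5' end, and the nearest pooled summit was 1157 bp away. The windows of *sdc-1* and *sdc-2*, both on X, had none. Over all protein-coding genes 2.30% of windows held the core, and on X 3.30%. This search of whole windows and of the genome was added after the *xol-1* sequence had been seen.

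The *dpy-28* window held the other thresholded peak, but the peak lay at the start of another gene. *dpy-28*, which encodes a condensin subunit of the dosage compensation complex, lies on III from 10763131 to 10777076 on the plus strand. The peak ran from 10759075 to 10759418, with its summit 3884 bp upstream of *dpy-28* and 60 bp upstream of *tasp-1*, the neighbouring gene on the same strand. *tasp-1* ends 109 bp before *dpy-28* begins. The pooled relative signal was 2.96 at rank 69, and 17 was its place among the 33 thresholded peaks on III. Replicate 1 gave 3.26 at rank 29 and replicate 2 gave 2.03 at rank 423, a mean of 2.65 ± 0.871 (SD, n = 2). Both replicates were more than 2 times their list medians, and replicate 2 was below the pooled value of the lowest thresholded peak. The same peak also lay in the windows of *K01G5.10*, *rnf-113* and *hpl-2*, so 5 protein-coding windows shared it, whereas the *xol-1* peak lay in the window of *xol-1* alone.

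Inside *dpy-28* the highest region lay in an intron, 12914 bp past the 5' end, with a pooled relative signal of 1.64 at rank 1124. It had 1.12 in replicate 1 and 1.35 in replicate 2, a mean of 1.24 ± 0.162 (SD, n = 2). It was thus above the list median in both replicates and ranked 10111 in replicate 1 and 4438 in replicate 2. The other 4 pooled regions of the window had relative signals from 0.792 to 0.994.

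GC content differed between the 2 peaks. It was 35.8% in the 201 bp at *xol-1* and 54.7% at *dpy-28*. The median was 33.3% over the pooled list and 42.3% over the thresholded list, so the *xol-1* peak was near the former and below the latter. The *dpy-28* peak was above the upper quartile of the thresholded peaks, 47.0%. GAGAGA, 49 bp from the *dpy-28* summit, was present at 36.2% of thresholded peaks and 10.5% of pooled regions.

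Thresholded peaks thus lay in the windows of 2 of the 10 members. Over all 19985 protein-coding genes 278 windows held one, 1.39%, and on X and III the shares were 1.83% and 2.50%. The rule drew on these same signals, so nothing is read from the difference. The members' windows were also longer, with a median of 11717 bp against 7026 bp for all genes. A region among the 1000 highest of the pooled list lay in 2 member windows, again *xol-1* and *dpy-28*, against 7.22% of all genes. With the replicates taken singly the count was also 2 in each, against 7.26% of genes in replicate 1 and 7.12% in replicate 2. No other member reached the 1000 highest regions of any list.

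**Figure D2:**
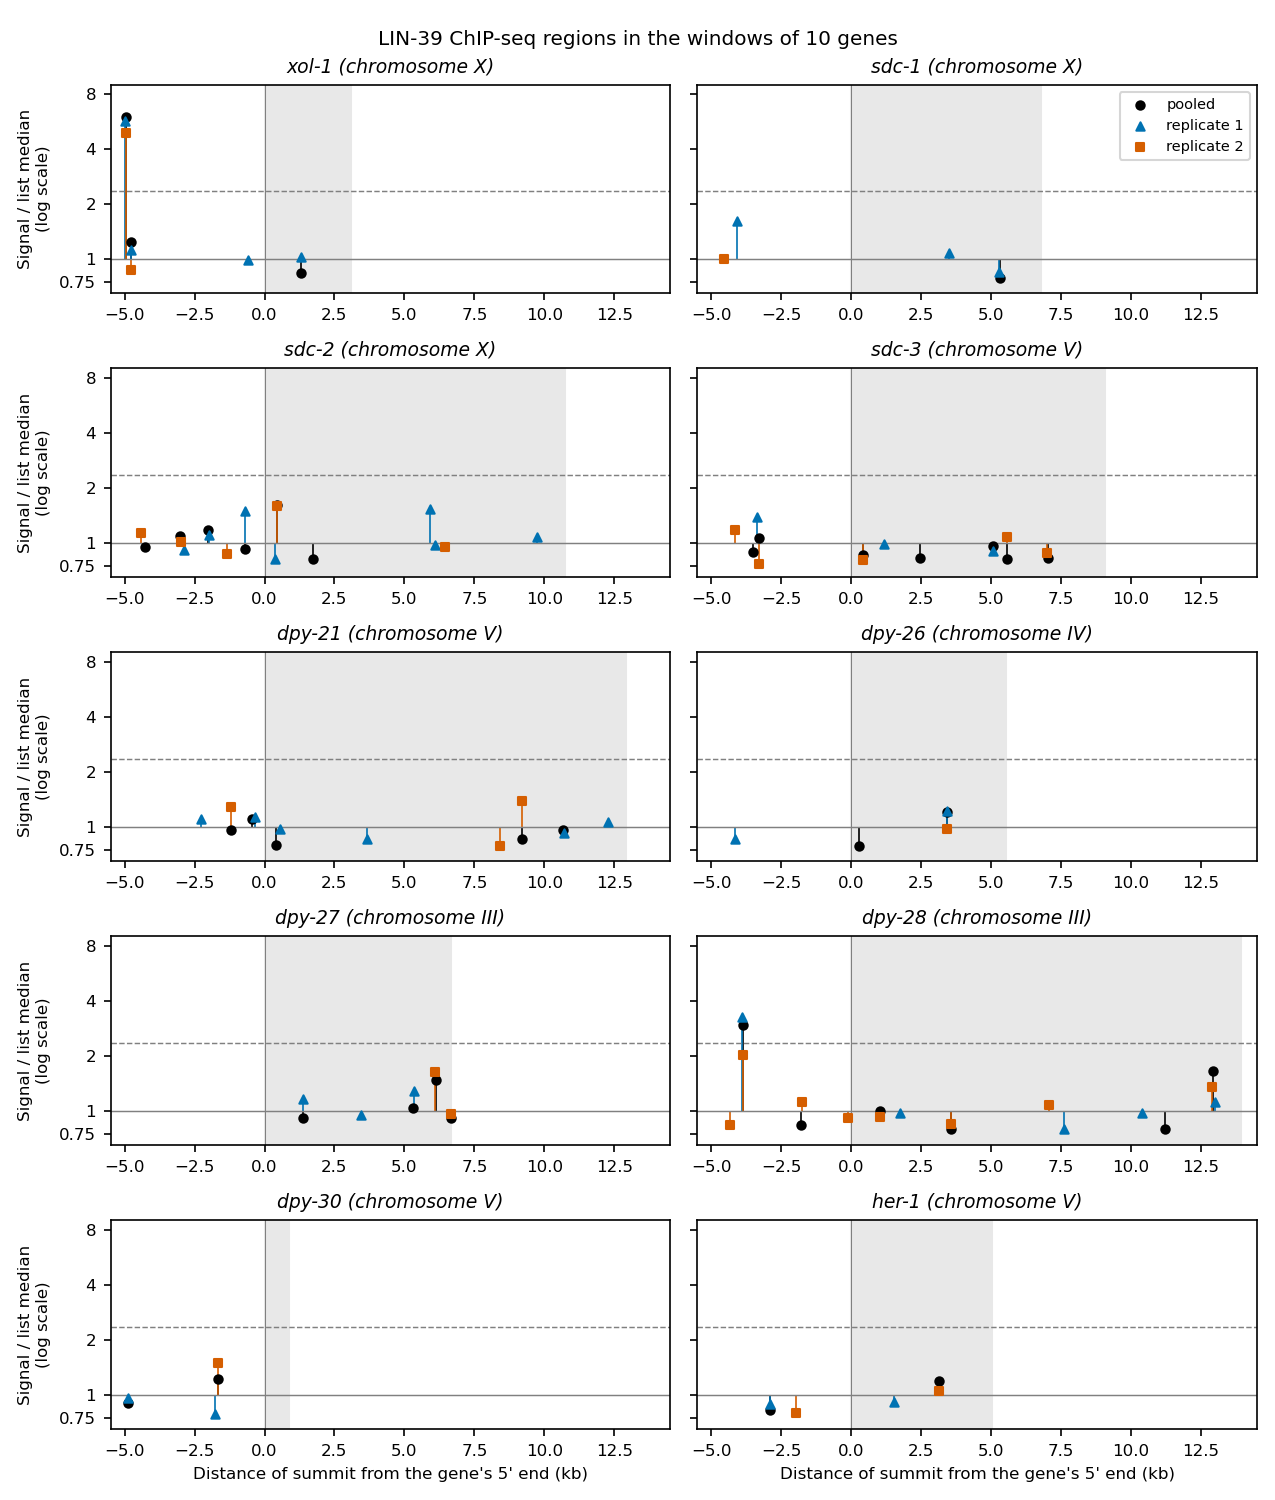
Every region in the windows of the 10 genes, with distance of the summit from the 5' end in kb on the x axis (negative is upstream) and relative signal on a log scale on the y axis. Grey blocks are the genes, circles the pooled list, triangles replicate 1 and squares replicate 2, and the dashed line is the lowest thresholded peak at 2.34. The pooled regions 4966 bp upstream of *xol-1* and 3884 bp upstream of *dpy-28* stand above that line. The replicate 2 counterpart of the *dpy-28* region, at 2.03, is below it. The pooled regions of the other 8 genes lie between 0.790 and 1.62.

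The SDC genes, whose products start the hermaphrodite programme, had no thresholded peak. *sdc-2*, the X-linked target of XOL-1, had its strongest pooled region in its own coding sequence, on X from 11522993 to 11523336, with the summit 458 bp past the 5' end. That region had a relative signal of 1.62 at rank 1267, with 1.60 at rank 1852 in replicate 2. In replicate 1 its counterpart had 0.817 at rank 25796, a mean of 1.21 ± 0.552 (SD, n = 2), so the 2 replicates lay on opposite sides of their medians. Replicate 1 had its own higher regions elsewhere, with 1.54 in a coding exon 5900 bp past the 5' end and 1.50 at 715 bp upstream. Of the 6 pooled regions of the *sdc-2* window, 2 had a counterpart in both replicates, and the farthest upstream lay inside *hpo-34*.

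*sdc-1*, a zinc finger gene on X, had the lowest strongest region of the 10 members in the pooled list. Its window held 1 pooled region, in a coding exon 5303 bp past the 5' end, with a relative signal of 0.793 at rank 29241. Replicate 1 gave 0.855 there and replicate 2 had no counterpart. The highest region of replicate 1, 4095 bp upstream, reached 1.61 at rank 1704, and that of replicate 2, 4549 bp upstream, 1.00 at rank 14904. Those summits were more than 200 bp apart and both lay in the antisense RNA gene *W10G6.5*. *sdc-3*, a zinc finger gene on V, had 7 pooled regions, from 0.818 to 1.07. The highest of them, 3301 bp upstream, lay in a coding exon of *fbxa-82*, with 1.38 in replicate 1 and 0.769 in replicate 2, again on both sides of the median.

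The condensin genes other than *dpy-28* were also without a thresholded peak. *dpy-27*, which encodes the SMC-class subunit specific to dosage compensation, had its strongest pooled region in an untranslated exon at its 3' end, on III from 3813396 to 3813739. The relative signal was 1.48 at rank 2270, with 1.63 at rank 1626 in replicate 2 and no counterpart in replicate 1. The highest region of replicate 1 lay in a coding exon 5343 bp past the 5' end, with 1.28. *dpy-27* had no region upstream of its 5' end in any list. *dpy-26*, which encodes the kleisin subunit, had its strongest region in an intron, on IV from 12447758 to 12448101. It had 1.20 in the pooled list, 1.22 in replicate 1 and 0.971 in replicate 2, a mean of 1.10 ± 0.177 (SD, n = 2).

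*dpy-21* and *dpy-30*, whose products belong to the complex outside the condensin, had no thresholded peak, and their replicates differed. *dpy-21*, which encodes a histone demethylase of the complex, had its strongest pooled region on V from 17949459 to 17949802, 438 bp upstream of the 5' end. It had 1.11 at rank 10137 in the pooled list, 1.14 at rank 9635 in replicate 1 and no counterpart in replicate 2. The highest region of replicate 2, 1.38 at rank 3916, lay in an intron 9202 bp past the 5' end. *dpy-30*, whose product is shared with histone methyltransferase complexes, had its strongest pooled region on V from 12189701 to 12190044, 1646 bp upstream. The pooled value was 1.22 at rank 6761, with 0.788 at rank 28032 in replicate 1 and 1.49 at rank 2656 in replicate 2, a mean of 1.14 ± 0.498 (SD, n = 2).

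*her-1*, the secreted male-promoting factor that the SDC proteins repress, had 2 pooled regions. The stronger lay in an intron of *her-1*, on V from 9699979 to 9700322, 3136 bp past the 5' end. It had 1.20 in the pooled list at rank 7354 and 1.05 in replicate 2, with no counterpart in replicate 1. The other lay in a coding exon of *ZK287.7*, 2915 bp upstream, with 0.822 in the pooled list and 0.891 in replicate 1. No region of *her-1* in either replicate exceeded 1.05.

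The order of the strongest pooled regions was *xol-1*, *dpy-28*, *sdc-2*, *dpy-27*, *dpy-30*, *dpy-26*, *her-1*, *dpy-21*, *sdc-3* and *sdc-1*. The lower replicate of *xol-1*, 4.89, was above the higher replicate of *dpy-28*, 3.26, and the lower replicate of *dpy-28*, 2.03, was above the highest region of every other member in either replicate, which was the 1.63 of *dpy-27*. In the other 8 members the highest regions of the replicates ran from 0.912 in replicate 1 of *her-1* to that 1.63. The lower value of *sdc-2*, 1.54, was above both replicates of *dpy-30*, *sdc-3*, *dpy-21*, *dpy-26* and *her-1*, and the lower value of *dpy-27*, 1.28, was above both of *dpy-26* and *her-1*. The ranges of *sdc-2*, *dpy-27* and *sdc-1* overlapped. With 2 replicates and highest regions that often lay at different positions, this order is a description. The median of the strongest region over the 10 members was 1.21 in the pooled list, against 1.17 over all protein-coding genes with a region. Among all genes, the strongest region of *xol-1* stood at percentile 99.9 and that of *dpy-28* at 99.3, *sdc-2* at 91.0 and *dpy-27* at 84.8, and the other 6 between 13.6 and 62.0. Member windows held a median of 3.5 pooled regions against 2 over all genes, and the members were chosen with these signals known. Nothing is therefore read from these comparisons with all genes.

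**Figure D3:**
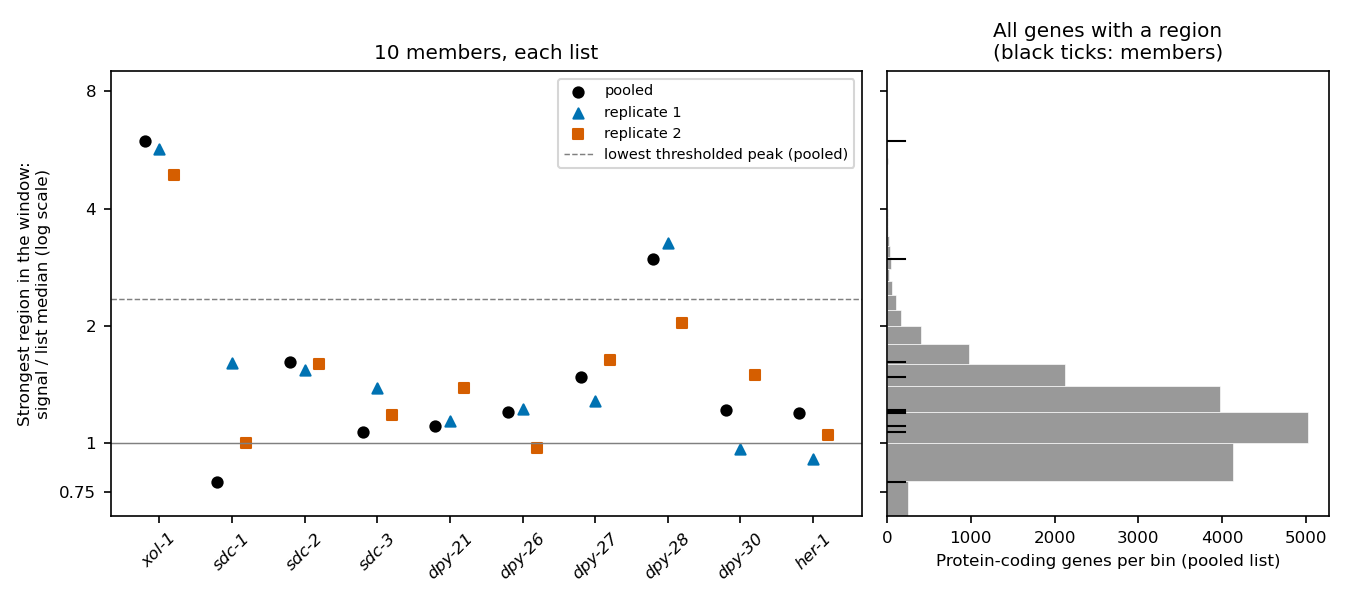
Left, the strongest relative signal (log scale) in the window of each of the 10 genes in the pooled list (circles), replicate 1 (triangles) and replicate 2 (squares), with the lowest thresholded peak at 2.34 dashed. Right, the number of protein-coding genes by their strongest pooled region, in bins of equal width on the linear scale, with black ticks for the 10 genes. Values of *xol-1*, 4.89 to 5.95, and *dpy-28*, 2.03 to 3.26, stand above those of the other genes, 0.793 to 1.63.

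The 10 windows together held 38 pooled regions, 37 of replicate 1 and 30 of replicate 2. All 10 members had at least 1 pooled region, as did 87.0% of all genes. The median was 3.5 regions per member window and 2 over all genes, and per kb of window it was 0.329 and 0.283. Of the 38 pooled regions, 14 (36.8%) were above the list median, and 2 (5.26%) reached 2 times the median or more, against 1.09% of the whole pooled list. Those 2 were the thresholded peaks of *xol-1* and *dpy-28*. The genes were chosen with these signals known, so nothing is read from that difference. Inside the genes lay 23 regions, 10 of them in coding exons, 11 in introns and 2 in untranslated exons, and 15 lay upstream.

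Few of the pooled regions were matched in both replicates. A counterpart in both replicates was found for 10 of the 38 pooled regions, 26.3%, against 28.9% of the whole pooled list, and 5 had none in either replicate. The strongest pooled region had a counterpart in both for 6 members, against 38.9% of all genes and 44.7% of the 17378 genes with a pooled region. These members were *xol-1*, *dpy-28*, *sdc-2*, *sdc-3*, *dpy-26* and *dpy-30*. Both replicates were called against a single control file, and how that bears on their agreement was not tested.

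The remaining patterns were each at 0 to 3 of the 10 strongest regions. GAGAGA was within 100 bp of the summit at *sdc-1* and *dpy-28*, TAATTA, a homeodomain core, at *dpy-21* and *dpy-27*, ATCGAT at *xol-1* and *dpy-28*, and TCACAC at *xol-1*, *sdc-1* and *dpy-28*. TAATTA was present at 10.7% of pooled regions, ATCGAT at 5.90% and TCACAC at 7.43%. At thresholded peaks these shares were 9.20%, 7.98% and 11.7%. TGATNNAT, the letters of a joint Hox and PBC site, was at 0 of the 10 regions and at 16.9% of pooled regions, and TGGGTGG, from the site of TRA-1, at 0 and 1.24%. The letters of ATCGAT are their own reverse complement, as are those of TAATTA, and no match of one pattern overlapped another at these regions.

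In the wider pathway no thresholded peak was found. Of 41 genes in 7 lists around the members 40 were matched to the annotation (*mog-6* was not), and 36 had a pooled region in their window. The count with a thresholded peak was 0 of 40 and with one of the 1000 highest regions 2 of 40, which stand beside 1.39% and 7.22% of all genes. The median strongest relative signal was 1.17, the same as over all genes with a region.

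Among the elements that set the level of *xol-1*, *sea-1* was the highest. This autosomal T-box gene had a region in its own coding exon, 1556 bp past the 5' end, with 1.91 at rank 422. It ranked 10413 in replicate 1 and 832 in replicate 2, so it was high in 1 replicate. *fox-1*, an X-linked RNA-binding protein gene, had 1.48, and *sex-1*, *ceh-39* and *sea-2* had values from 0.810 to 1.23. Below *her-1*, the 6 genes ran from 1.14 to 1.47, with *tra-3*, a calpain protease gene, highest. The *tra-3* region had 0.837 in replicate 1 and 1.61 in replicate 2. Of the DM domain genes, which encode transcription factors, *dmd-4* had a region at rank 571 with 1.82. It lay in a coding exon of *C27C12.3* and ranked 253 in replicate 1 and 7638 in replicate 2. *dmd-5* had no pooled region.

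The other lists had no region among the 1000 highest. In the germline sex list *fog-2* was highest at 1.46, and *fbf-1*, *mog-1* and *mog-2* had no pooled region. Of the other condensin genes *kle-2* was highest at 1.63, followed by *mix-1*, the partner of DPY-27 in dosage compensation, at 1.62. The *kle-2* region lay in an intron of *C29E4.10*, with the 5' end of *C29E4.12* nearest. The *mix-1* region had 1.37 in replicate 1 and 0.980 in replicate 2. For histone H4 lysine methylation *set-4* had 1.27, and of the partners of DPY-30 in the COMPASS methyltransferase complex *ash-2* had 1.18. These regions lay between genes, nearest to the 5' ends of *ttc-39B* and *acbp-6*. That of *ash-2* had 1.62 in replicate 1 and 0.872 in replicate 2.

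**Figure D4:**
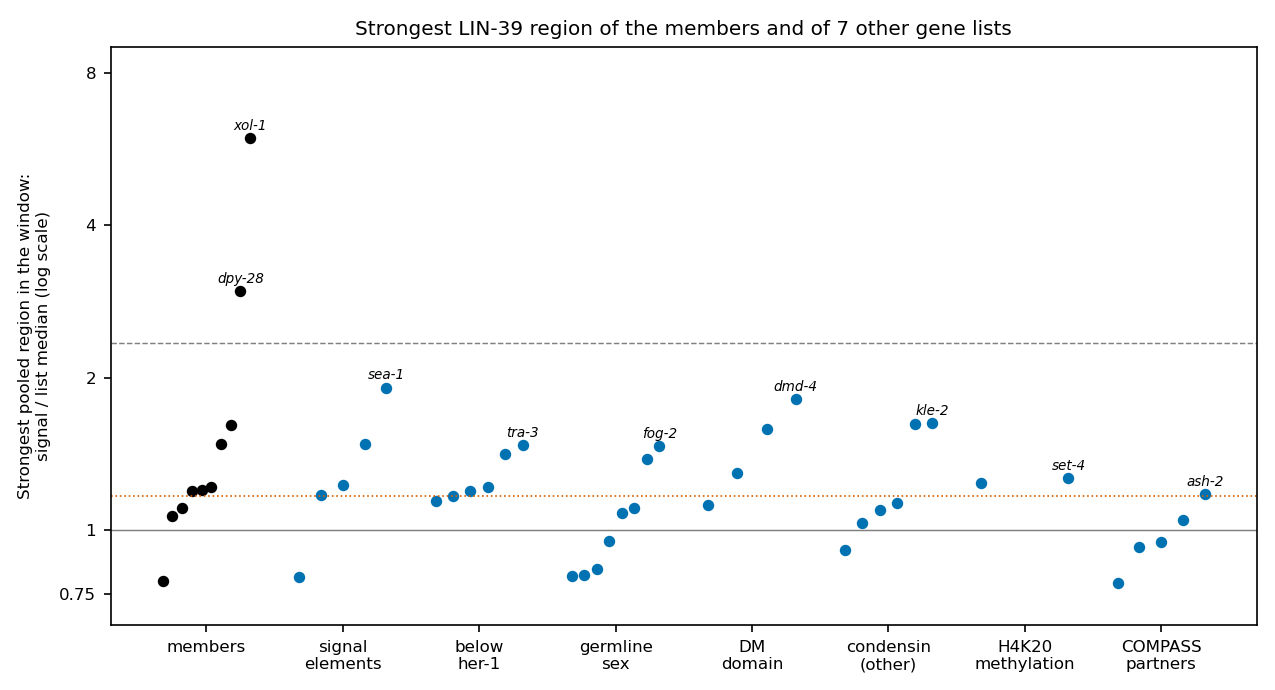
Strongest pooled relative signal (log scale) in the window of each member (black) and of each gene of 7 further lists (blue), 1 point per gene, with the highest genes named. The dashed line is the lowest thresholded peak at 2.34, the dotted line the median of all protein-coding genes with a region at 1.17 and the solid line the list median. *xol-1* and *dpy-28* are above the dashed line, and the 36 genes of the other lists lie between 0.788 and 1.91.

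The peaks most like that of *xol-1* in the 2 replicates were nearest to *Y17G9B.5*, *F19H6.5* and *T27A8.7*. Likeness was the distance of the log2 relative signals over the 2 replicates, among 150 thresholded peaks with a counterpart in both. The *Y17G9B.5* peak on IV had 4.34 in replicate 1 and 5.33 in replicate 2, at a distance of 0.41. The *F19H6.5* peak on X had 6.22 and 3.67, at 0.43, and the *T27A8.7* peak on X had 4.67 and 6.34, at 0.47. None of these 3 peaks had the recruitment motif core within 100 bp of its summit.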

How the data were processed

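The deposited peak lists on ce11 were used: a list per replicate, a pooled list and a list past an irreproducible discovery rate threshold. Per the deposited text descriptions, the authors made each replicate's list from its alignment and a control alignment, and the pooled list from both alignments with that control. Neither the caller nor the threshold is given in the sources used here. No scale is stated for the signal values the authors deposited, and their medians differ between lists, so ranks and the ratio to the list median were used. The deposited offset column (other unit) is the same in every row of a list, so the summit is the region's midpoint. The ce10 lists were not used here, since no ce10 annotation was at hand.

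Coordinates are 1-based and were annotated with Ensembl release 115 on WBcel235. Sequences are RefSeq WBcel235. Replicate numbers are those of the labels, and no test was made because there is 1 group. The members, the pathway lists and the 7 patterns were chosen with earlier results of these data known. Genes were named by rule: all members, and in each list the genes with a thresholded or top 1000 region or otherwise the highest. The genes at the 3 peaks most like *xol-1* were named too, and for some regions genes whose 5' end is nearer. Other names were added after their values were seen. By 5' end, *F52E10.2*, *C25G4.3*, *toh-1* and *xbx-6* were nearer to the strongest pooled regions of *sdc-1*, *dpy-26*, *dpy-27* and *her-1* than these members. Likewise *ptr-19* was nearest to the highest region inside *dpy-28*, and *srx-98* to the *sea-1* region. Alternatives varied the window, the list, the number of top regions, the counterpart distance and the pattern distance. The functions were tested on simulated data. Python 3.11.15, numpy 2.4.6, pandas 2.3.3 and matplotlib 3.10.9 were used.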

Additional observations from a re-analysis of the deposited data

How the results depend on the processing

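The 2 members with a thresholded peak became 0 with 2000 bp upstream and 1 when only the protein-coding gene with the nearest 5' end was counted (*xol-1*). With as many of the highest regions of a single replicate, the count ranged from 1 to 2. The 2 members with a region among the 1000 highest became 0 with 2000 bp upstream and 4 over the 5000 highest regions. The median strongest relative signal was 1.21 and ranged from 1.33 to 1.44 without one replicate or the other. As a percentile of the pooled list it was 76.7. The 38 pooled regions became 15 with a window ending 200 bp past the 5' end. The 2 pathway genes with a high region became 1 with 2000 bp upstream and 4 with 10000 bp. With 2000 bp upstream, the strongest region of *xol-1* had a relative signal of 0.841 and that of *dpy-28* 1.64, because their peaks lie farther away. Of the values for all members together or for the pathway lists, 18 under other alternatives stayed within the replicate spread or within 1.5 times the count. Of the values for single genes or patterns, 14 moved beyond that. Another 10 were given as percentiles, a scale that cannot be set against the spread of a ratio. The strongest region of *sdc-1* went from 0.793 to 1.61 without replicate 2. With the window ending 200 bp past the 5' end, *her-1* went from 1.20 to 0.822 and *sdc-2* from 1.62 to 1.18. TGATNNAT went from 0 to 1 of 10 regions with 200 bp on either side. The causes of the changes between replicates were not tested. No paired analysis was possible because both replicates belong to a single group. The depth is unknown, so no interval could be given, and with 2 replicates an SD rests on a pair of values.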
